A study of Drosophila melanogaster with 4 samples.

Results

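The genes pug (NCBI gene 41279) and Adss (NCBI gene 42466) were examined in fruit fly heads after feeding with sodium valproate (NaVP), a drug against epilepsy and mood disorders that blocks histone deacetylases and is known to disturb folate metabolism. The animals were adult males of Drosophila melanogaster. All spots whose single annotated symbol is pug or Adss were taken. They form 4 clones of 13824 on the array: 1 of pug, at spots 7575 and 7576, and 3 of Adss, at spots 4101 and 4102 (called here the first Adss clone), 14669 and 14670 (the second) and 365 and 366 (the third). The pug clone and the first Adss clone had a value on all 4 arrays. The second Adss clone had values on 3 arrays and so just met the minimum of 3 arrays, while the third had no listed value on any array and was left out. The remaining 3 clones are among 1030 that met the minimum. Both genes were chosen by the known effect of valproate on folate and with their log ratios on these same 4 arrays already in view, so their values are a description and carry no test.

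Treated and control animals were unmated Oregon-R wild-type males aged 10 to 11 days, kept at 30 flies per vial. Treated males were moved for 3 days to food with 0.33 mg/ml NaVP, and control males to fresh normal food (NF) for the same time. Each of 4 two-colour cDNA arrays set RNA from a pool of treated heads against RNA from a pool of control heads, and the series' design text counts the arrays as 4 biological replicates. Whole sieved heads hold brain, eyes, fat body and muscle, so fewer cells of a type and less RNA per cell cannot be told apart.

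The folate cycle carries single carbon units bound to tetrahydrofolate. The pug protein is the enzyme with several activities that interconverts these folate forms and makes formyltetrahydrofolate, and the gene takes its name, pugilist, from an eye colour mutant. Formyltetrahydrofolate donates carbons to the purine ring while inosine monophosphate is built up on a phosphoribosyl backbone. Adss, adenylosuccinate synthetase, then joins aspartate to inosine monophosphate in the first step from it towards adenosine monophosphate, and Adsl carries out the next step. Purines also give rise to guanosine triphosphate, the start of the pteridine pigments of the fly eye.

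Every value is a log ratio of the 2 dyes, taken as log2 since the base is not stated, and centred on the median of its array. NaVP RNA was labelled with Cy5 on arrays 1 and 2 and with Cy3 on arrays 3 and 4, the swap arrays. No source used here states whether the deposited ratios of the swap arrays had been turned, so results are given in 2 readings. In the first, with the swap arrays turned, the deposited values are taken as Cy5 over Cy3 and the sign of arrays 3 and 4 is changed. In the second, with the swap arrays as deposited, they are taken as NaVP over normal food already. The labels do not settle the reading: they enter the Cy5 sample as channel 1 on every array, but each title names normal food before NaVP. Positive means higher in NaVP heads; if arrays 1 and 2 ran the other way, every sign below would change. Over the clones shared by a pair of arrays, the deposited values correlated at r = 0.56 between arrays 1 and 2, at r = 0.41 between arrays 3 and 4, and between 0.0053 and 0.35 across the 2 dye orientations, where the turned reading gives the same values with the opposite sign. Among clones that met the minimum of 3 arrays, r was 0.55 between arrays 1 and 2 and 0.39 between arrays 3 and 4. Across the dye orientations it ran from -0.14 (arrays 1 and 3) to 0.34 (arrays 2 and 4). Clones with a listed value numbered 2615, 662, 1877 and 1602 on arrays 1 to 4. Without intensities in the files the brightness of a spot is unknown, and the number of arrays limits the precision.

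The pug clone stood above 0 on all 4 arrays with the swap arrays turned. Its centred log2 ratios in that reading were 0.67 on array 1, 0.53 on array 2, 0.47 on array 3 and 0.012 on array 4. Arrays 1 to 3 were thus close to each other and array 4 lay at the median of its clones. Of the 453 clones on 4 arrays, 48 (10.6%) were above 0 on all of them in this reading. The mean was 0.42 ± 0.28 (SD, n = 4), a 1.34-fold ratio of NaVP to normal food. Leaving out each array in turn gave means from 0.34 to 0.56, all above 0. The 2 spots of the clone gave nearly the same picture. Their difference on the log2 scale was 0.17, 0.061, 0.15 and 0.021 on arrays 1 to 4, against a median of 0.18, 0.15, 0.14 and 0.13 over all spot pairs of these arrays.

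As deposited, the same values split by dye. The centred log2 ratios of pug were 0.67 and 0.53 on arrays 1 and 2 but -0.47 and -0.012 on the swap arrays. The mean in this reading was 0.18 ± 0.52 (SD, n = 4), smaller than the spread between arrays. It was 0.016 without array 1, 0.06 without array 2 and 0.40 without array 3. Of the 1030 clones, 207 (20.1%) had, like pug, a mean above 0 on arrays 1 and 2 and below 0, as deposited, on the swap arrays.

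**Figure D1:**
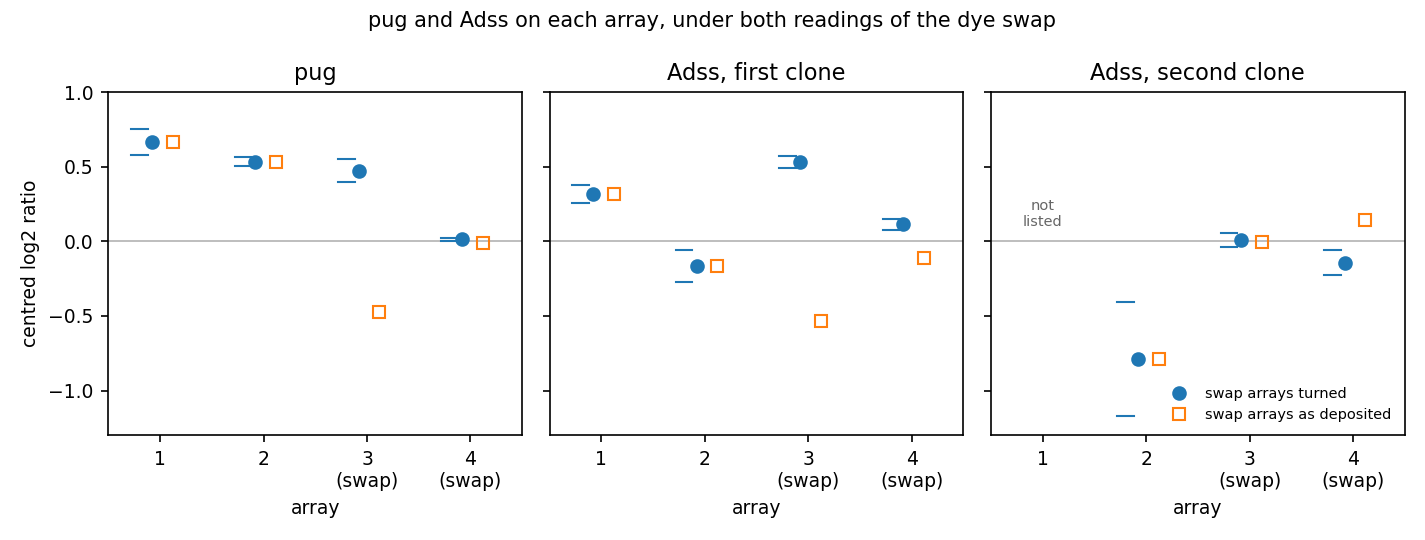
Centred log2 ratio (vertical axis) of the pug clone and of both measured Adss clones on each array (horizontal axis); filled circles have the swap arrays turned, open squares have them as deposited, and the short bars are the 2 spots of the clone in the turned reading. The 4 filled circles of pug lie between 0.012 and 0.67, while the second Adss clone is not listed on array 1 and its spots lie far apart on array 2.

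The Adss clones did not give 1 value for the gene. The centred log2 ratios of the first Adss clone, with the swap arrays turned, were 0.32, -0.17, 0.53 and 0.11 on arrays 1 to 4. It was thus above 0 on 3 of 4 arrays, highest on array 3 and below 0 on array 2. The mean was 0.20 ± 0.30 (SD, n = 4), a 1.15-fold ratio that is smaller than the spread between arrays. Without array 3 the mean was 0.087 and without array 2 it was 0.32. As deposited, the mean of this clone was -0.12 ± 0.35 (SD, n = 4), and it was 0.012 without array 3.

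The second Adss clone had centred log2 ratios of -0.79, 0.008 and -0.14 on arrays 2, 3 and 4 with the swap arrays turned, and no listed value on array 1. Its mean of -0.31 ± 0.42 (SD, n = 3) rested on array 2, without which it was -0.067. On array 2 its spots, at -0.41 and -1.17 after centring, differed by 0.76, more than 96.1% of the spot pairs of that array. On arrays 3 and 4 the spots differed by 0.099 and 0.17. As deposited, the mean was -0.22 ± 0.50 (SD, n = 3), and 0.067 without array 2. With 3 values, 1 dye orientation of this clone rests on a single array, so its plain mean mixes treatment and dye. With both orientations weighted equally, its mean was -0.43 in the turned reading and -0.36 as deposited.

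On the 3 arrays that measured both clones, the first Adss clone exceeded the second by 0.62, 0.52 and 0.26 on arrays 2, 3 and 4 with the swap arrays turned, a mean of 0.47 ± 0.19 on the log2 scale (SD, n = 3). Over 32 pairs of tested clones of the same gene, from 28 genes, the median absolute difference in this reading was 0.13, and 2 pairs differed by more than the Adss pair. As deposited, the difference between the Adss clones was 0.62, -0.52 and -0.26 on the same arrays, a mean of -0.053 ± 0.60 (SD, n = 3), and 26 of the 32 pairs differed by more. The old platform annotation gives all 3 Adss clones the same gene and transcript. Which stretch of the transcript each clone holds is not given in the sources used here. The sign of Adss in NaVP heads therefore depended on the clone in the turned reading, while both means were below 0 as deposited, and in both readings the mean of each clone lay within 1 SD of 0.

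Set among all 1030 tested clones by their means with the swap arrays turned, pug ranked 32 from the highest, the first Adss clone 158 and the second 987. As deposited they ranked 266, 822 and 928. On single arrays in the turned reading, pug lay above 95.3%, 92.2%, 93.8% and 58.5% of the tested clones on arrays 1 to 4. The first Adss clone lay above 76.3%, 25.7%, 95.0% and 71.2% of them, and the second above 1.94%, 59.1% and 37.0% on arrays 2 to 4. As deposited, arrays 1 and 2 are the same, while on arrays 3 and 4 pug lay above 6.14% and 41.3% of the tested clones and the first Adss clone above 4.87% and 28.5%. On these arrays as deposited, the second Adss clone lay above 40.7% and 62.8% of them. The high place of pug and the first Adss clone on array 3 thus holds in the turned reading alone.

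A moderated linear fit (limma, two-sided, Benjamini-Hochberg adjusted p under 0.05 over the 1030 clones) called 0 of the 3 clones from the mean alone in either reading. It called 0.0971% of all clones in the turned reading and 0.777% as deposited. Of all clones, 71 had an unadjusted limma p under 0.05 in the turned reading and 145 as deposited. With dye orientation as a second coefficient, 1 of the 3 clones, pug, was called higher with the swap arrays turned, where the fit called 3.11% of all clones in either direction and 2.43% as higher. As deposited, that fit called 0 of the 3 and 5.73% of all clones. Since the choice of pug and Adss was made with these calls known, nothing is read from their number.

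**Figure D2:**
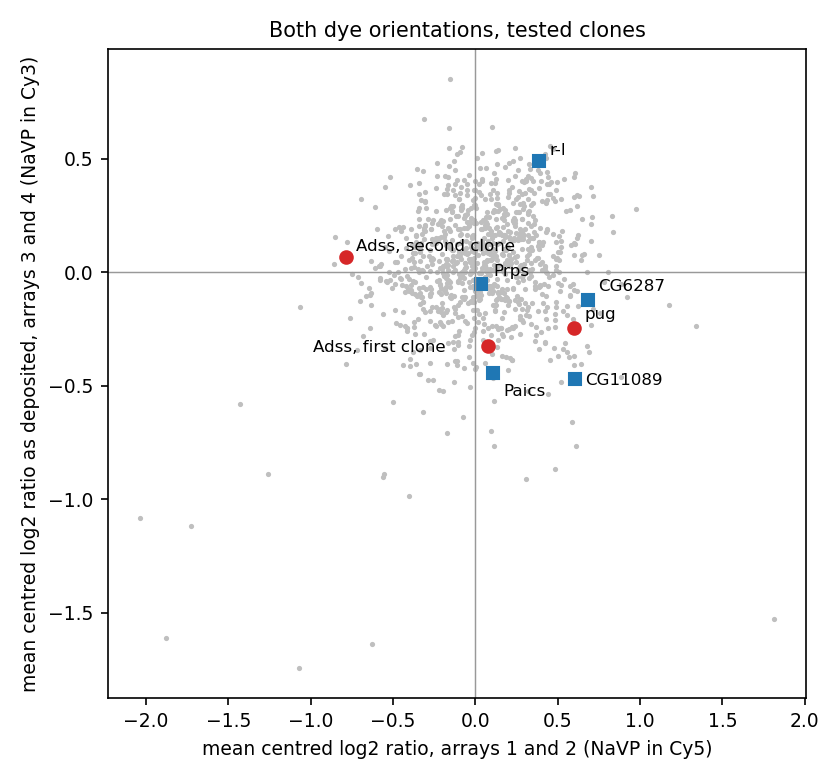
Mean centred log2 ratio on arrays 1 and 2 (horizontal axis) against the mean as deposited on arrays 3 and 4 (vertical axis) for the 1030 tested clones (grey), with pug and Adss in red and the other tested pathway clones as blue squares; a clone with 3 values has 1 array on one of the axes. The pug clone, CG11089, CG6287, Paics, Prps and the first Adss clone lie in the lower right area, which holds 207 clones. The r-l clone lies in the upper right and the second Adss clone in the upper left.

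The rest of the pathway was followed through 5 lists of genes for folate and single-carbon metabolism, serine synthesis, purine synthesis, purine salvage and interconversion, and pyrimidine synthesis. The salvage and pyrimidine lists also hold genes of breakdown, such as ry and pyd3. Without pug and Adss the 5 lists hold 58 genes. Of these, 37 have an annotated clone, 13 have a value on some array and 5 met the minimum of 3 arrays. Of these 5 genes, 0 were called by limma from the mean alone in either reading, at backgrounds of 0.0971% and 0.777%. An unadjusted limma p under 0.05 was reached by 1 of 5 in each reading (CG11089 turned, r-l as deposited). Over all 1030 tested clones it was reached by 71 in the turned reading and 145 as deposited. In the turned reading, the mean was above 0 for 5 of 5 and their median was 0.27, beside 47.6% of all tested clones above 0 and a median of -0.0094. As deposited, 3 of 5 were above 0 with a median of 0.069, beside 60.0% and a median of 0.05. These counts describe 5 clones that share the same arrays. With both dye orientations weighted equally, the turned mean of r-l was -0.051. The turned mean of Prps changed sign without array 1 and without array 4.

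CG11089 carries the synonym atic in the reference gene table, the name of the enzyme that carries out the last reactions towards inosine monophosphate and takes a carbon from formyltetrahydrofolate, the product of pug. Its centred log2 ratios with the swap arrays turned were 1.10, 0.11, 0.73 and 0.21 on arrays 1 to 4. All 4 lay above 0, as for pug (10.6% of the clones on 4 arrays), and those of arrays 1 and 3 were above 99.6% and 98.1% of the tested clones. The mean was 0.54 ± 0.46 (SD, n = 4), a 1.45-fold ratio that ranked 11 from the highest among the 1030 clones. Without array 1 it was 0.35. It did not pass from the mean alone (limma adjusted p = 0.587). Once dye orientation was added to the fit it passed (limma adjusted p = 0.00707, the 1 called of the 5 genes, background 3.11%), and over all alternatives its limma adjusted p ran from 0.00707 to 0.99972. That fit leans on a spread pooled over clones, with 76.4 prior degrees of freedom, so the large spread of this clone between arrays of the same dye counted for little. As deposited the mean of CG11089 was 0.069 ± 0.77 (SD, n = 4; limma adjusted p = 0.928), and -0.28 without array 1.

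Paics, the enzyme just before the adenylosuccinate lyase reaction of the same route, had centred log2 ratios of 0.27, -0.067, 0.64 and 0.24 on arrays 1 to 4 with the swap arrays turned. Like the first Adss clone, it was above 0 on 3 of 4 arrays, highest on array 3 and below 0 on array 2. Its mean was 0.27 ± 0.29 (SD, n = 4; limma adjusted p = 0.729), and -0.17 ± 0.38 as deposited (limma adjusted p = 0.636). Without array 3 these means were 0.15 and -0.011. Prps, phosphoribosyl pyrophosphate synthetase, which makes the sugar phosphate on which purines are built, was split in sign, at 0.22, -0.15, -0.14 and 0.24. Its mean of 0.043 ± 0.22 (SD, n = 4; limma adjusted p = 0.975) was close to 0 in the turned reading, as was that of -0.0077 as deposited.

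CG6287, placed on the serine synthesis list, had centred log2 ratios of 0.68, 0.19 and 0.048 on arrays 1, 3 and 4 with the swap arrays turned, and no listed value on array 2. Its mean was 0.31 ± 0.33 (SD, n = 3; limma adjusted p = 0.737), 0.12 without array 1 and 0.40 with the dye orientations weighted equally. As deposited the mean was 0.15 ± 0.47 (SD, n = 3; limma adjusted p = 0.737), and -0.12 without array 1. The plain means of CG6287 and r-l, with 3 values each, mix treatment and dye like that of the second Adss clone. The pyrimidine gene r-l, which encodes the enzyme of the last steps to uridine monophosphate, was steadier as deposited than turned. Its deposited values after centring were 0.40, 0.38 and 0.49 on arrays 1, 2 and 4, all above 0 and close together. The mean as deposited was 0.42 ± 0.06 (SD, n = 3), a 1.34-fold ratio that did not pass (limma adjusted p = 0.213). With dye orientation added to the fit, the mean was 0.44 and still did not pass (limma adjusted p = 0.0555). In the turned reading, array 4 was at -0.49 and the mean of r-l was 0.095 ± 0.51 (SD, n = 3; limma adjusted p = 0.945).

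**Figure D3:**
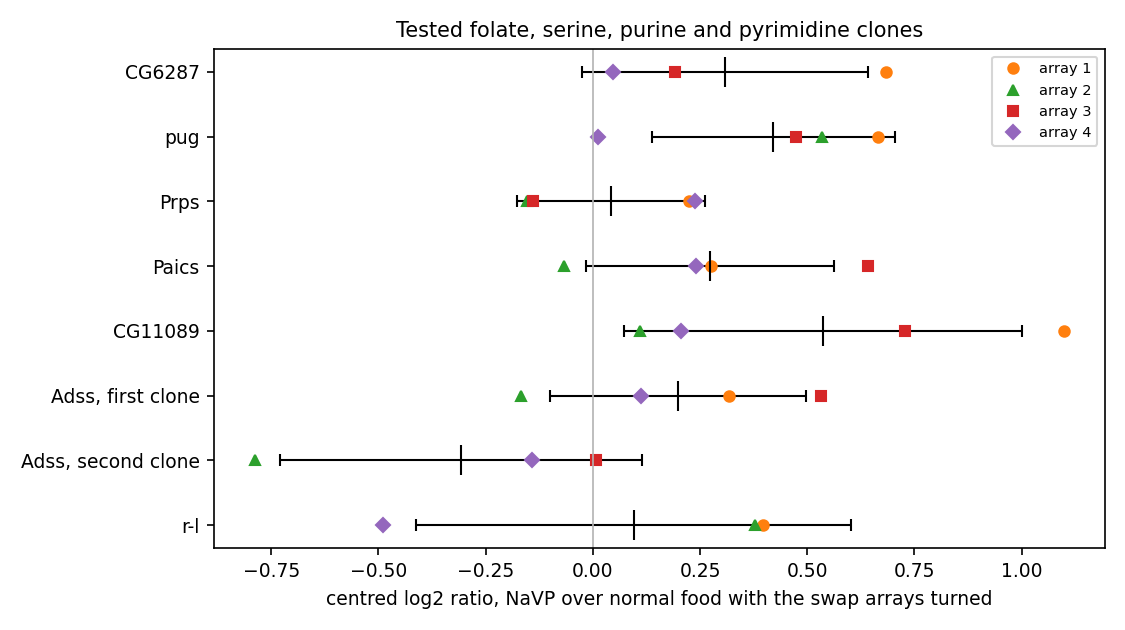
Centred log2 ratio of NaVP to normal food with the swap arrays turned (horizontal axis) for each tested clone of the pathway lists, with 1 symbol per array, the vertical tick at the mean and the bar spanning 1 SD to each side. The means of pug (0.42) and CG11089 (0.54) are the highest, and the second Adss clone, at -0.31, is the one clone with a mean below 0.

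Another 8 genes of these lists had values on 1 or 2 arrays only and were not tested. Adsl, the lyase that acts after Adss and also earlier in purine synthesis, stood at 0.59 on array 1 and, on array 4, at 0.39 turned and -0.39 as deposited. Ahcy, which clears the homocysteine precursor left by methylation reactions, stood at 0.89 on array 1 and, on array 4, at 0.063 turned and -0.063 as deposited. On array 1 alone, where the readings do not differ, values were listed for CG11899 of the serine list at 0.67, AhcyL1 at 0.37, pyd3 of pyrimidine breakdown at -0.01 and Prat, the enzyme that commits to purine synthesis, at -0.23. The adenosine deaminase-related gene Adgf-A, on array 3 alone, and ry, xanthine dehydrogenase of purine breakdown, on array 4 alone, were at 0.78 and 0.74 in the turned reading and at -0.78 and -0.74 as deposited. Counting every listed value of the 13 other genes in the turned reading, 9 of 11 were above 0 on array 1, 2 of 4 on array 2, 4 of 5 on array 3 and 7 of 8 on array 4. Of the tested clones, 57.1%, 55.4%, 41.7% and 43.0% were above 0 on these arrays. As deposited, the counts on arrays 3 and 4 were 1 of 5 and 1 of 8, beside 58.1% and 57.0% of the tested clones. All these shares cover clones on at least 3 arrays, while the counts include genes listed on 1 or 2 arrays. Over all clones listed on an array, the centring leaves as many above 0 as below. For the other 24 genes with a clone, among them Nmdmc, Ts and Pfas, no value was listed.

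The clones with 1 gene symbol whose pattern came nearest to each measured clone were found by the root mean square difference of centred log2 ratios over its arrays. For pug, among 223 clones on 4 arrays, they were CG17896 (difference 0.11), CG17977 (0.13) and glob1, a globin gene (0.16), where the median clone differed by 0.48. The glob1 clone begins at spot 7585, close to that of pug on the spot list. For the first Adss clone they were Cyt-c1, of respiratory complex III (0.081), Paics of the purine route (0.10) and pkm (0.11), with a median of 0.40. For the second Adss clone, over 3 arrays and 233 clones, they were Alg-2 (0.19), Eph (0.24) and Nubpl (0.26), with a median of 0.55. No gene was near to more than 1 of the 3 clones by this rule.

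The tissue could be checked by listed spots only, since ratios hold no levels. Of 14 photoreceptor genes, 6 have a clone and 4, Arr1, inaC, inaD and trpl, were listed on at least 3 arrays, as were 2 of 8 neuronal genes (Gad1 and Hdc), 2 of 6 muscle genes and 1 of 8 fat body genes (apolpp). Of the neuronal, muscle and fat body genes, 4, 3 and 6 have a clone. Of 4 haemocyte genes, 3 have a clone, 1 has a listed value and 0 met the minimum. Of 6 genes of testis and accessory gland, 3 have a clone, 1 has a listed value and 0 met the minimum. Over the whole array 1030 of 13824 clones met it, so these small counts cannot show which tissues were present. The means of the photoreceptor clones ran from -0.14 to 0.15 with the swap arrays turned and from 0.061 to 0.34 as deposited. The neuronal clones Gad1 and Hdc were at -0.18 and -0.031 in the turned reading and at 0.22 and 0.32 as deposited, and the 2 muscle clones ran from 0.0022 to 0.076 and from -0.056 to 0.13. The 2 apolpp clones were at 0.011 and 0.23 in the turned reading and at -0.10 and -0.40 as deposited. The part of a changed cell make-up of the heads in the values of pug and Adss was not tested.

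**Figure D4:**
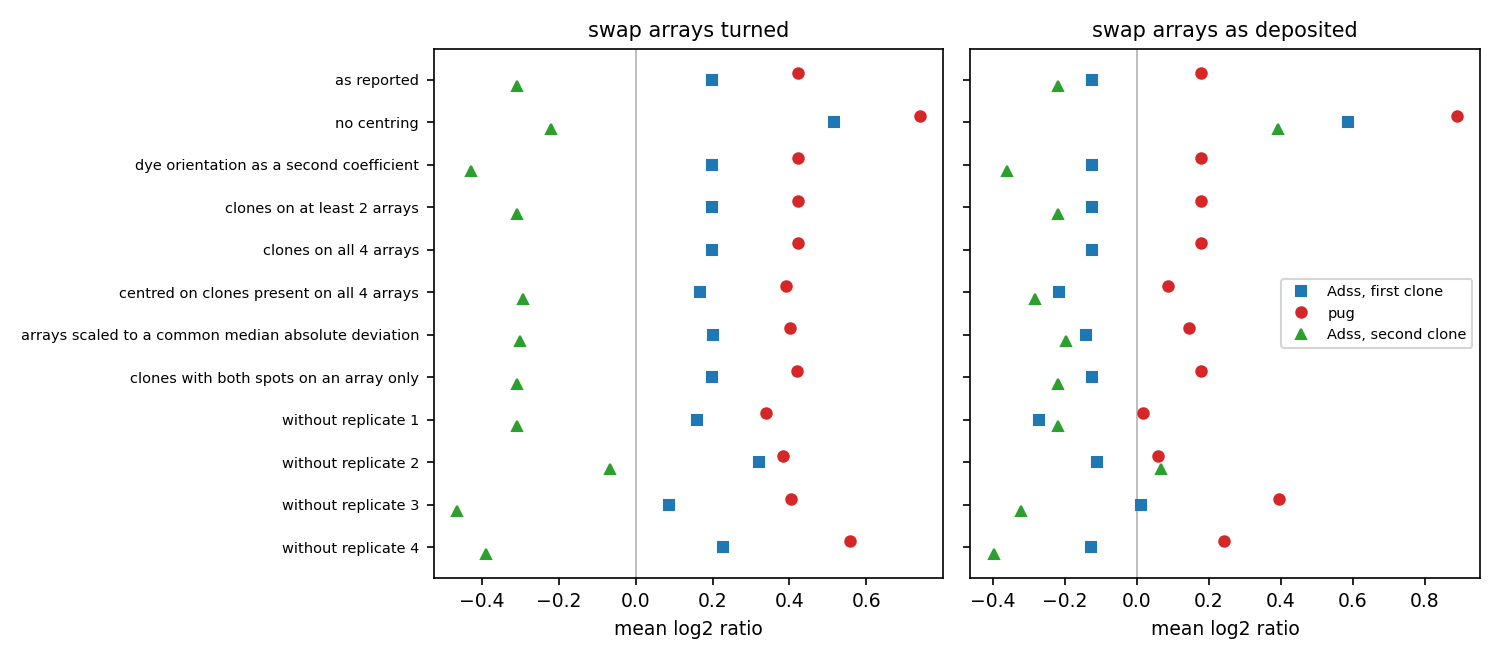
Mean log2 ratio (horizontal axis) of pug, the first and the second Adss clone under each way of processing (vertical axis; replicates 1 to 4 are the arrays), in the turned reading (left) and as deposited (right). With the swap arrays turned, pug stays between 0.34 and 0.74 and the second Adss clone below 0; as deposited, both Adss clones lie above 0 without centring.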

How the data were processed

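The deposited file holds 1 log2 ratio per spot and array (27648 spots); the base of 2 is assumed. The authors' deposited log2 ratios came from GenePix Pro 6.0 with ratio normalisation in Acuity 4.0, per the design text, and from spots that passed filters on saturation, flags, uniformity and noise. Their one-class test in SAM 2.21 was not repeated here.

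Neighbouring spots of a clone were averaged (all 7609 annotated pairs share their gene), and each array was centred on the median of its clones (1.01, 1.05, 0.54 and 0.24). Old symbols were updated by gene ID to the Release 6 reference table. An intercept-only model was then fitted with limma 3.58.1 (R 4.3.3; lmFit and eBayes) with Benjamini-Hochberg adjustment at 0.05 over the 1030 clones on at least 3 arrays. It was also run on simulated data, with the same noise for every clone and no dye effect. Fits without an array kept clones with at least 2 values. The genes and lists were chosen with earlier results of these data known. From the lists, genes on at least 3 arrays were named. Clone coordinates and sequences were not used here.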

Additional observations from a re-analysis of the deposited data

How the results depend on the processing

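With the swap arrays turned, the means of pug and both Adss clones kept their sign under all alternatives run. As deposited, pug kept it, while the first Adss clone changed sign in 2 of 11 alternatives and the second in 2 of 10. Some of these alternatives cannot move a mean. For pug and the first Adss clone, these are the dye coefficient and the limits to clones on at least 2 or on all 4 arrays. For the second Adss clone, they are the limit of at least 2 arrays and the fit without array 1, where it has no value. Without centring, the mean of pug was 0.74 (turned) and 0.89 (as deposited), that of the first Adss clone 0.52 and 0.59, and that of the second 0.39 as deposited, because the array medians then stay in the values. Leaving out arrays gave 0.34 to 0.56 and 0.016 to 0.40 for pug, 0.087 to 0.32 and -0.27 to 0.012 for the first Adss clone, and -0.47 to -0.067 and -0.40 to 0.067 for the second.

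With the swap arrays turned, limma called 1 clone in all, but 0 without centring, on clones with at least 2 values or on those with 4 values, 32 with the dye coefficient, 5 over gene means, and 1 to 12 without an array. As deposited it called 8, but 745 without centring, 59 with the dye coefficient, 24 on clones with at least 2 values, 1 on those with 4, and 3 to 19 without an array. Of the 5 other pathway genes, 1 was called with the dye coefficient (turned), beside 32 of all 1030 clones. All 5 were called without centring (as deposited), beside 745 of all 1030 clones. The array medians, all above 0, then stay in every value. The cause was not tested for the other changes.

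Signs changed in the turned reading for Prps (-0.018 without array 1, -0.023 without array 4, range without an array -0.023 to 0.11) and r-l (-0.051 with the dye coefficient, -0.056 without array 1, -0.046 without array 2). As deposited they changed for CG11089 (-0.022 centred on clones with 4 values, -0.28 without array 1, range -0.28 to 0.33), CG6287 (-0.12 without array 1), Paics (0.54 without centring) and Prps (0.70 without centring, 0.041 without array 2, 0.0695 without array 4, range -0.085 to 0.0695). Each array is already a ratio of 1 treated and 1 control pool, so the fit of the mean log ratio uses this pairing. All 4 arrays form 1 group, so no further pairing could be used. Background correction and dim-spot filters could not be varied without intensities.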
